A study of Mus musculus with 17 samples.

Results

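The kynurenine route is the chain of enzymes by which the liver breaks down tryptophan and can turn part of it into NAD. Its genes were followed here by name: all 8 genes listed for the route (Tdo2, Ido2, Afmid, Kmo, Kynu, Haao, Qprt and Acmsd) were found once each in a table of 46073 genes, and all 8 passed the filter that left 11083 genes for testing. Livers of 17 male C57BL/6 mice, 11 or 12 weeks old and of 3 labels at Nampt, were taken 24 h after acetaminophen (APAP) or saline. Nampt encodes the enzyme that salvages nicotinamide into NAD, the other main supply beside the route described here. The labels are Nampt +/- (called Het), Nampt OE (called OE, a label left unexplained) and Nampt +/+ (called WT). APAP at 200 mg/kg was given to 3 Het, 2 OE and 3 WT mice, and saline to 2 Het, 2 OE and 3 WT mice. Another OE mouse had 300 mg/kg APAP and another WT mouse had saline labelled IG, each alone in its group. All mice received an injection, by IP or IG, so no group is without handling.

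Tryptophan enters the route when its indole ring is opened by tryptophan dioxygenase (Tdo2), the hepatic enzyme, or by the indoleamine dioxygenases. Afmid, Kmo, Kynu and Haao then act in turn on formylkynurenine, kynurenine, hydroxykynurenine and hydroxyanthranilate. The product of Haao is unstable and stands at a fork. Left alone it closes into quinolinate, which Qprt carries on towards NAD, whereas Acmsd decarboxylates it and sends the carbon to picolinate or to full oxidation. Hepatocytes are known as the main site in the body where the whole chain to NAD is present.

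The promoters of 3 members are shown because they span the behaviours described further on: Tdo2 opens the route, Afmid was the most lowered member, and Haao stands before the fork and was not called. Each sequence runs 5′ to 3′ over 250 bases before and 50 bases after the annotated start in RefSeq, build GRCm38.p6. They lie at chr3:81975679-81975978 on the minus strand for Tdo2, chr11:117825669-117825968 on the plus strand for Afmid and chr17:83846741-83847040 on the minus strand for Haao. For Tdo2 and Haao the windows lie inside the gene bounds given further on, which come from GENCODE. The annotations differ on the start of these genes, and upstream here refers to the RefSeq start. Capitals mark TATAAA (the TATA box), TGACCT (a core bound by nuclear receptors), GTTAAT (a core of the HNF1 site) and TGTTCT (a core of the glucocorticoid receptor site), on either strand.
Tdo2: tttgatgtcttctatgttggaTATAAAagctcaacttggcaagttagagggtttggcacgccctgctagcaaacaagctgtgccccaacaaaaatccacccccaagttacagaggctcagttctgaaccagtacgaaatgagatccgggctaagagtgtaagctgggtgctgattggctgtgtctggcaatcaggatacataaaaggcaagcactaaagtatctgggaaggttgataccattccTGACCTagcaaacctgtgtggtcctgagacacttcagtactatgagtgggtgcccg
Afmid: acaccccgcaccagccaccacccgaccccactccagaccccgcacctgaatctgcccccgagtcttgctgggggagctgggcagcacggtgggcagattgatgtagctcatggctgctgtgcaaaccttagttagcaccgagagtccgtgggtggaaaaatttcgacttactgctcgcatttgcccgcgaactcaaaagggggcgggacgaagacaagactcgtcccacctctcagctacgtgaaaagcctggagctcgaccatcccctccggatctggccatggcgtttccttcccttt
Haao: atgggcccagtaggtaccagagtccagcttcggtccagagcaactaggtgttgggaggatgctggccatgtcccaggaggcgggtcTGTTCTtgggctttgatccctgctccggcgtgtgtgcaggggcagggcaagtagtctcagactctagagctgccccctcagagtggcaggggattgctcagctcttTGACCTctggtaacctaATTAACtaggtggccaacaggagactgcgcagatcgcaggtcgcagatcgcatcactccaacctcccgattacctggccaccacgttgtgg
RefSeq entries were matched for 6 of the 8 members (all but Kynu and Ido2, which are named only). Tdo2 held a TATAAA that began 229 bases upstream of the start and a TGACCT 6 bases upstream. Haao held a TGTTCT 164 bases upstream, a TGACCT 58 bases upstream and a reverse GTTAAT 41 bases upstream. Afmid held none of the 4 but had 18 CG dinucleotides, against a median of 7 over the 32851 promoters of the same length. TGACCT was found in 3 of the 6 member promoters and in 16.3% of all promoters, TATAAA in 1 of 6 and 13.6%, GTTAAT in 1 of 6 and 7.1%, and TGTTCT in 2 of 6 and 19%. The remaining motifs searched, on both strands, were GCGTG (a core bound by the aryl hydrocarbon receptor, 3 of 6 members and 32.4% of promoters), CCAAT (1 of 6 and 37.4%) and TGACNNNGC (the antioxidant response core, 2 of 6 and 12.4%). TGACNNNGC and TGACCT share letters, and in Tdo2 both matches begin 6 bases upstream of the start. A match of letters is a description of these windows and no binding was measured.

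Values are FPKM, fragments scaled to transcript length and library size, so levels can be set beside each other between genes; the depth behind them is unknown. Differences are in log2(FPKM + 1) with standard errors, from limma with a term for liver perfusion, and adjusted p-values run over all 11083 genes. Each library is taken here to be 1 mouse, though the labels say only that the libraries of a group are separate samples. The p-values therefore capture sample-to-sample spread, possibly of technical origin. Perfused livers made up 1 of 3 Het APAP, 2 of 2 Het saline, 1 of 2 OE APAP, 1 of 2 OE saline, 0 of 3 WT APAP and 2 of 3 WT saline livers, and perfusion followed the sequencing lane. The lanes of WT saline held no other group but the IG library, so every difference that uses WT saline cannot be told apart from lane. Nampt mRNA, the check on the labels, was 13.95 ± 2.30 FPKM in Het APAP livers (n = 3) and 24.5 ± 2.10 in Het saline livers (n = 2), 27.2 ± 12.3 in OE APAP and 24.8 ± 3.42 in OE saline livers (n = 2 each), and 13.2 ± 3.12 in WT APAP and 17.1 ± 1.54 in WT saline livers (SD, n = 3 each). The Het label therefore did not go with less Nampt mRNA than the WT label, and every direction given for Het rests on the label alone. Under saline the OE and Het values were close (24.8 and 24.5 FPKM), and the 2 OE APAP livers spread widely. Directions between OE and Het thus rest on the labels as well. On the second principal component (12.8% of the variance) OE saline 2 (38.5) and OE APAP 1 (39.0) stood apart from all others. The next was Het saline 2 at 15.2. The counts that changed without OE saline 2 and OE APAP 1 are given. Both were non-perfused livers of 1 lane, so leaving them out leaves 1 perfused liver in each of their groups. The OE liver given 300 mg/kg, also non-perfused and of that lane, stood at -13.8 on the same component. Summed FPKM lay between 466883 and 916006 per library.

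Under saline the route was led by its first enzyme. The median over the 7 saline livers was 769 FPKM for Tdo2, 274 for Haao, 136 for Kmo, 62.0 for Kynu, 56.0 for Qprt, 45.4 for Afmid, 15.3 for Ido2 and 9.03 for Acmsd. Tdo2 ranked 126 of the 11083 tested genes by its mean over all 17 libraries, Haao 421 and Kmo 659, whereas Acmsd ranked 2886 and Ido2 3806. Tdo2, whose lowest saline value was 645 FPKM, stood clear of all other members. The saline ranges of Haao (134 to 311) and Kmo (109 to 146) overlapped, as did those of Kynu (50.3 to 71.4), Qprt (34.6 to 69.1) and Afmid (35.8 to 58.3), and those of Ido2 (7.61 to 19.7) and Acmsd (5.10 to 22.1), while these sets of neighbours did not overlap each other. Ido1, the inducible relative of Tdo2 in immune and other tissues, stayed at or under 0.0593 FPKM in every library and was not tested.

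After APAP most of the route was lower and its order changed at the low end. The medians over the 8 livers given 200 mg/kg were 410 FPKM for Tdo2, 130 for Haao, 79.1 for Kmo, 41.1 for Qprt, 34.6 for Kynu, 21.2 for Acmsd, 10.5 for Afmid and 8.09 for Ido2. Acmsd exceeded Afmid in 6 of the 8 APAP livers and in 0 of the 7 saline livers. The FPKM of the 8 members summed to 569 ± 109 in Het APAP livers (n = 3), against 1293 ± 27.7 in Het saline livers (SD, n = 2). The sum was 1253 ± 39.1 in OE APAP and 1337 ± 82.6 in OE saline livers (n = 2 each), where the values overlapped, and 745 ± 127 in WT APAP and 1301 ± 45.8 in WT saline livers (n = 3 each), where they did not. Tdo2 alone made up 44.6% to 65.2% of the sum in the APAP livers and 50.8% to 65.8% in the saline livers.

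**Figure D1:**
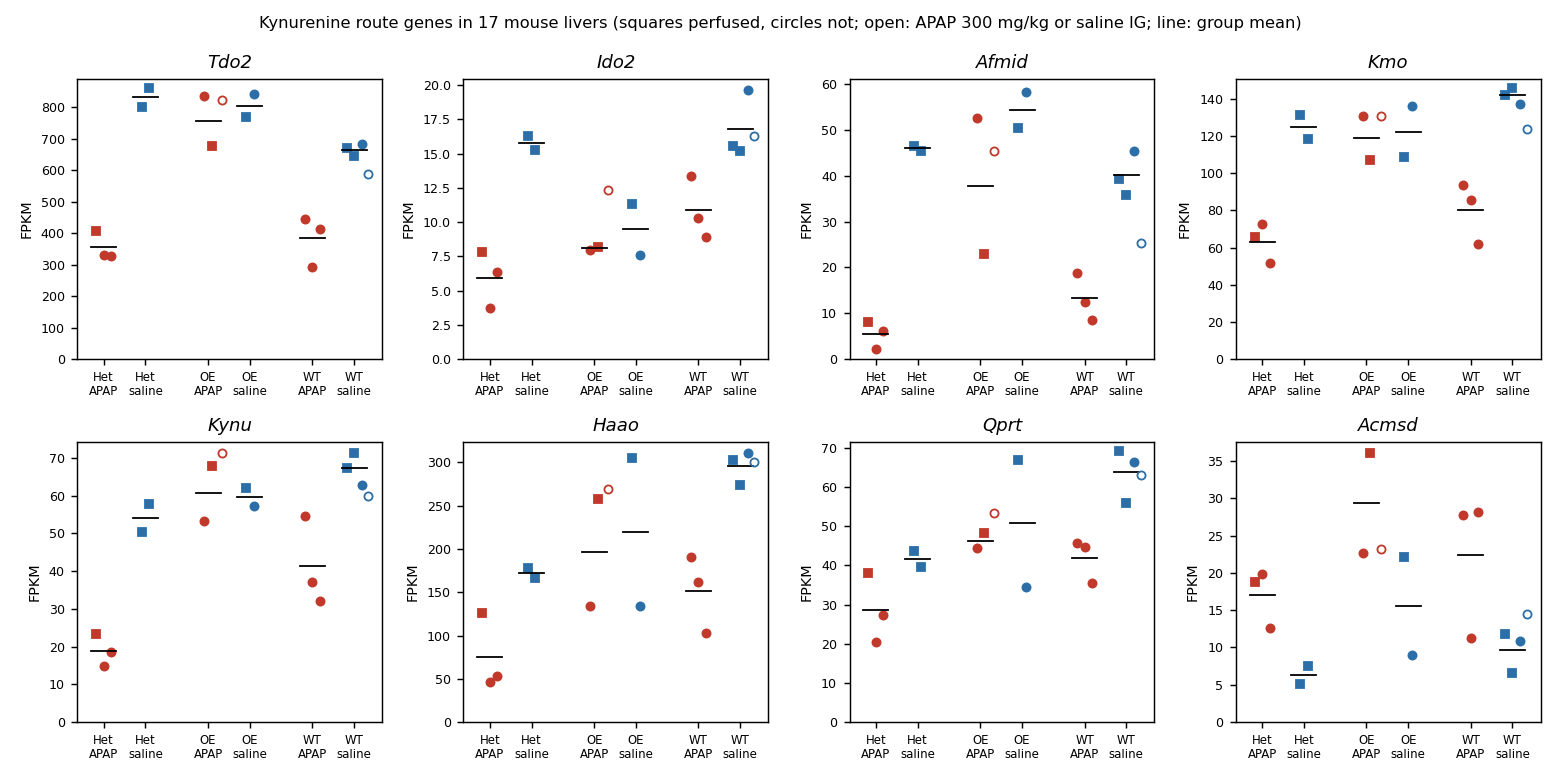
FPKM of each of the 8 route genes (vertical axes, each starting at 0) in the 17 livers, by label and treatment; squares are perfused livers, circles are not, open circles are the single livers given 300 mg/kg APAP or saline IG, and lines are group means. In Het livers every member but Acmsd was lower after APAP without overlap, and Acmsd was higher, while the OE APAP and OE saline points overlap for all members but Acmsd.

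Averaged over the 3 labels, APAP lowered 5 of the 8 members and raised 1. Tdo2, Afmid, Kmo, Kynu and Ido2 fell, Acmsd rose, and Haao and Qprt did not pass. Of all genes tested 23.1% were called in this comparison, 13.3% lower and 9.81% higher, and the members' median was -0.61 against -0.02 for all tested genes. The count was 5 without WT saline 3 (Ido2 lost), 3 without OE saline 2 (Kmo, Kynu and Acmsd lost), 2 without OE APAP 2 (Tdo2, Kmo, Acmsd and Ido2 lost) and 4, all lower, without both OE saline 2 and OE APAP 1; direction was kept by all 8. Scaling every library to one summed FPKM left 3, Tdo2, Afmid and Acmsd, and moved the median of all genes by 0.13. No member separated all 8 APAP livers from all 7 saline livers, while 2.42% of tested genes were lower and 1.31% higher without overlap. In whole-liver RNA fewer cells of a type and less RNA per cell cannot be told apart.

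**Figure D2:**
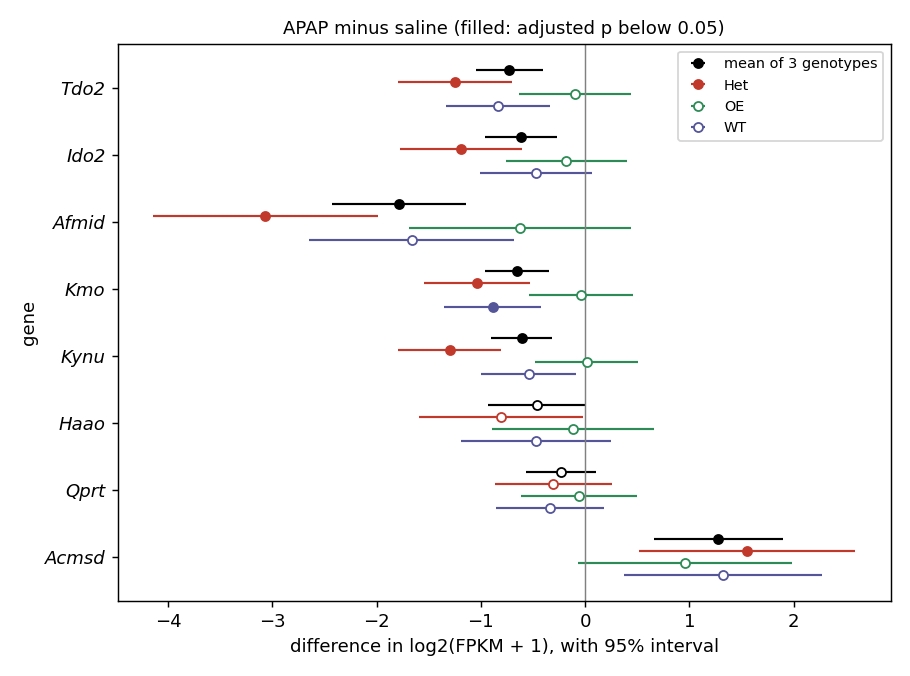
APAP minus saline differences in log2(FPKM + 1) (horizontal axis) with 95% intervals for the 8 members, as the mean of 3 labels and for Het, OE and WT livers; filled points passed an adjusted p of 0.05. Afmid lies farthest to the left in each label and Acmsd is the only member to the right of 0 in all 4 sets, though the OE interval of Acmsd reaches -0.07.

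Tdo2 (ENSMUSG00000028011, chromosome 3, 81957090 to 81976202, minus strand, GRCm38) commits tryptophan to the route. It stood at 407, 331 and 326 FPKM in Het APAP livers, against 803 and 862 FPKM in Het saline livers. In OE livers it stood at 835 and 677 FPKM after APAP, against 769 and 842 FPKM under saline. In WT livers it stood at 446, 292 and 413 FPKM after APAP, against 670, 645 and 684 FPKM under saline. The Het and WT APAP livers lay well below their saline livers without overlap, whereas the OE livers overlapped. The averaged difference was -0.73 ± 0.15 (limma adjusted p = 0.00506).

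Ido2 (ENSMUSG00000031549, chromosome 8, 24531892 to 24576333, minus strand), a relative of Ido1 that acts on the same substrate with low activity, followed the same direction at a far lower level. Het APAP livers had 7.78, 3.70 and 6.33 FPKM, against 16.3 and 15.3 FPKM in Het saline livers. OE APAP livers had 7.97 and 8.21 FPKM, against 11.3 and 7.61 FPKM in OE saline livers. WT APAP livers had 13.4, 10.3 and 8.92 FPKM, against 15.6, 15.2 and 19.7 FPKM in WT saline livers. Values were separate in Het and WT livers and overlapped in OE livers. The averaged difference was -0.61 ± 0.16 (limma adjusted p = 0.0168; 0.0619 where no gene was filtered out for low values).

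Afmid (ENSMUSG00000017718, chromosome 11, 117825924 to 117839908, plus strand) encodes the formamidase that releases kynurenine, and it had the most negative APAP difference of the members in every label. In the livers labelled Het it was 7.99, 2.26 and 6.02 FPKM after APAP, against 46.6 and 45.4 FPKM under saline. In the livers labelled OE it was 52.6 and 22.9 FPKM after APAP, against 50.3 and 58.3 FPKM under saline. In the livers labelled WT it was 18.7, 12.5 and 8.51 FPKM after APAP, against 39.2, 35.8 and 45.4 FPKM under saline. Het and WT livers separated, and of the OE APAP livers the value of replicate 2 lay below both saline livers while replicate 1 lay between them. The averaged difference was -1.79 ± 0.29 (limma adjusted p = 0.0021). Afmid overlaps Tk1 (1.68 to 15.0 FPKM), which lies on the opposite strand, and Gm20708 (at most 2.11 FPKM) on the same strand; whether counting used strand is not given in the sources used here.

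Kmo (ENSMUSG00000039783, chromosome 1, 175620381 to 175662116, plus strand), a flavin enzyme of the mitochondrial outer membrane, hydroxylates kynurenine. Its FPKM was 65.6, 72.6 and 51.4 in Het APAP livers, against 131 and 118 in Het saline livers. Its FPKM was 131 and 107 in OE APAP livers, against 109 and 136 in OE saline livers. Its FPKM was 93.5, 85.6 and 62.1 in WT APAP livers, against 142, 146 and 137 in WT saline livers. The pattern matched Tdo2, with clear separation in Het and WT livers and overlap in OE livers. The averaged difference was -0.65 ± 0.14 (limma adjusted p = 0.00611), and Kmo overlaps Fh1 (71.6 to 264 FPKM), which lies on the opposite strand, so with unstranded counting their fragments could not be told apart.

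Kynu (ENSMUSG00000026866, chromosome 2, 43555329 to 43682715, plus strand) encodes kynureninase, a pyridoxal phosphate enzyme. Het APAP livers showed 23.4, 14.8 and 18.5 FPKM, against 50.3 and 57.7 FPKM in Het saline livers. OE APAP livers showed 53.2 and 68.0 FPKM, against 62.0 and 57.2 FPKM in OE saline livers. WT APAP livers showed 54.7, 37.2 and 32.0 FPKM, against 67.4, 71.4 and 62.9 FPKM in WT saline livers. Every Het APAP value lay below every other library, and only OE livers overlapped between treatments. The averaged difference was -0.61 ± 0.14 (limma adjusted p = 0.0078).

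Haao (ENSMUSG00000000673, chromosome 17, 83831156 to 83847963, minus strand), the dioxygenase that makes the unstable product at the fork, varied widely within groups. Het APAP livers held 126, 46.0 and 52.8 FPKM, against 178 and 167 FPKM in Het saline livers. OE APAP livers held 134 and 258 FPKM, against 305 and 134 FPKM in OE saline livers. WT APAP livers held 190, 161 and 102 FPKM, against 303, 274 and 311 FPKM in WT saline livers. Both OE groups were split by the same 2 libraries that stood apart on the second component. OE APAP 1 and OE saline 2 had the low values. They were the non-perfused livers of their groups, in 1 lane, and their partners were perfused and in another lane. Within these groups the split cannot be told apart from lane or perfusion. The OE liver given 300 mg/kg, also non-perfused and of the lane of the low values, had 270 FPKM. The averaged difference of -0.46 ± 0.22 did not pass (limma adjusted p = 0.145), and without the perfusion term it was -0.82 and passed (adjusted p = 0.0307). It was -0.16 (limma adjusted p = 0.585) without WT saline 3 and -0.22 with quantile normalization.

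Beyond the fork, the enzyme of the arm towards NAD was not called and the enzyme of the arm away from it rose. Qprt (ENSMUSG00000030674, chromosome 7, 127107114 to 127122226, minus strand), which turns quinolinate into nicotinic acid mononucleotide, had 37.9, 20.4 and 27.3 FPKM in Het APAP livers, against 43.6 and 39.5 FPKM in Het saline livers. It had 44.3 and 48.4 FPKM in OE APAP livers, against 67.0 and 34.6 FPKM in OE saline livers. It had 45.8, 44.7 and 35.5 FPKM in WT APAP livers, against 69.1, 56.0 and 66.4 FPKM in WT saline livers. Het livers separated by 1 narrow gap (37.9 against 39.5 FPKM) and WT livers by a wider one, while OE livers overlapped, and the averaged difference of -0.23 ± 0.15 did not pass (limma adjusted p = 0.306; 95% interval -0.57 to 0.10).

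Acmsd (ENSMUSG00000026348, chromosome 1, 127729413 to 127767978, plus strand) encodes the decarboxylase that takes the shared intermediate away from NAD. It reached 18.7, 19.8 and 12.6 FPKM in Het APAP livers, against 5.10 and 7.54 FPKM in Het saline livers. It reached 22.6 and 36.0 FPKM in OE APAP livers, against 22.1 and 9.03 FPKM in OE saline livers. It reached 27.8, 11.3 and 28.2 FPKM in WT APAP livers, against 11.8, 6.55 and 10.8 FPKM in WT saline livers. Het livers separated clearly and OE livers by 0.5 FPKM, while WT APAP 2 fell below the highest WT saline liver. The averaged difference was 1.28 ± 0.28 (limma adjusted p = 0.00844), and 1.01 (adjusted p = 0.0729) without OE saline 2 and OE APAP 1. An antisense gene, 2900009J06Rik (0.50 to 2.97 FPKM), overlaps Acmsd on the opposite strand.

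The level of Acmsd relative to Qprt, the enzyme that takes up quinolinate, sets the arms after the fork beside each other in each liver. The ratio of their FPKM was 0.642 ± 0.285 in Het APAP livers (n = 3), against 0.154 ± 0.0524 in Het saline livers (SD, n = 2). It was 0.628 ± 0.166 in OE APAP livers, against 0.296 ± 0.0485 in OE saline livers (SD, n = 2 each). It was 0.552 ± 0.275 in WT APAP livers, against 0.150 ± 0.0289 in WT saline livers (SD, n = 3 each). Within each label the APAP and saline ratios did not overlap, but over the labels they did, since the lowest APAP ratio was 0.253 (WT APAP 2) and the highest saline ratio 0.330 (OE saline 1). The OE liver given 300 mg/kg had 0.435 and the WT liver given saline IG had 0.229. No test of this ratio was made, and it compares mRNA, not enzyme activity or flux.

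**Figure D3:**
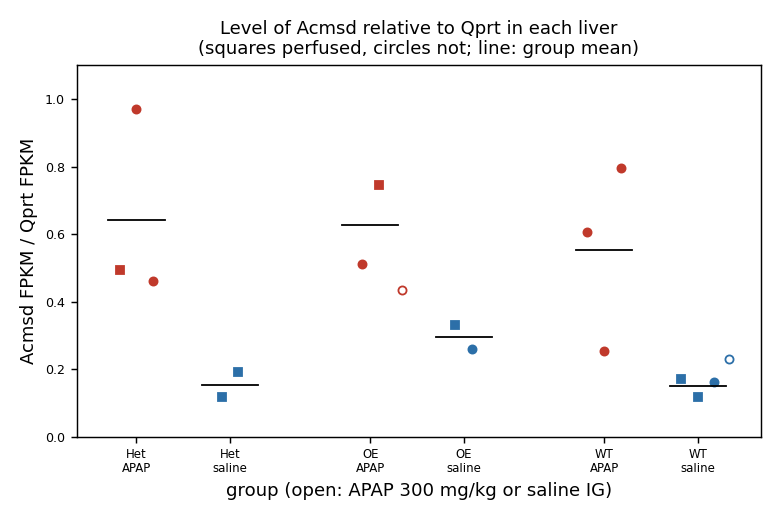
Acmsd FPKM divided by Qprt FPKM (vertical axis, from 0) in each liver by label and treatment, with group means as lines; squares are perfused livers, circles are not, and open circles are the single livers given 300 mg/kg APAP or saline IG. APAP livers lie between 0.253 and 0.971 and saline livers between 0.117 and 0.330, with no overlap within a label.

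In Het livers alone 5 members fell and 1 rose after APAP, where 22.2% of tested genes were called (13.1% lower, 9.07% higher). The falls were -3.07 ± 0.49 for Afmid (limma adjusted p = 0.00236), -1.30 ± 0.23 for Kynu (0.00283), -1.25 ± 0.25 for Tdo2 (0.00521), -1.19 ± 0.27 for Ido2 (0.00923) and -1.04 ± 0.24 for Kmo (0.00918), and the rise of Acmsd was 1.56 ± 0.47 (0.037). Haao (-0.80, adjusted p = 0.132) and Qprt (-0.31, adjusted p = 0.426) did not pass. Haao passed without the perfusion term (-1.34, limma adjusted p = 0.0448) and with array weights (-0.909, 0.0288). It did not pass with lane in place of perfusion (-0.449, 0.440) or with quantile normalization (-0.415, 0.3985). By library, 7 members were lower and 1 higher without overlap, where 33.3% of tested genes were lower and 25.4% higher in that way. Within the 1 lane that held both treatments (1 APAP and 2 saline livers, all perfused) the differences were -2.39 for Afmid, -1.17 for Kynu, -1.03 for Tdo2, -0.93 for Ido2, -0.92 for Kmo, -0.45 for Haao, -0.13 for Qprt and 1.45 for Acmsd. Without Het saline 1 the count was 3 and without Het saline 2 it was 4, and Acmsd was lost, leaving 5, without Het APAP 1, Het APAP 2, WT saline 1 or any 1 of the 4 OE livers given saline or 200 mg/kg. With lane as a term in place of perfusion 2 remained, Afmid (limma adjusted p = 0.0227) and Kynu (0.0338).

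In OE livers 0 members were called, as were 0% of all tested genes with limma; at an unadjusted p under 0.05 stood 534 genes (4.82%) and 0 members. Acmsd differed by 0.96 ± 0.47 (limma adjusted p = 1; 95% interval -0.07 to 1.98) and was the only member whose OE livers did not overlap, where 10.8% of tested genes were higher and 10.6% lower without overlap. The Acmsd difference was 1.48 without OE saline 1 and 0.44 without OE saline 2. Afmid differed by -0.63 ± 0.48 (95% interval -1.69 to 0.44). The 2 lanes that held both treatments, with 1 liver of each, gave Acmsd differences of 0.68 and 1.24 and Afmid differences of -1.10 and -0.15. The OE liver given 300 mg/kg lay within or above the range of the OE saline livers for every member but Afmid, which at 45.4 FPKM was under both.

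In WT livers 1 member was called lower, Kmo (-0.89 ± 0.22, limma adjusted p = 0.0327), where 5.54% of tested genes were called and 3.57% were lower. Just past the threshold stood Tdo2 (-0.83 ± 0.23, adjusted p = 0.0526) and Afmid (-1.66 ± 0.45, 0.0532). Acmsd (1.32 ± 0.43, 0.095), Kynu (-0.54, 0.145), Ido2 (-0.47, 0.284), Qprt (-0.34, 0.437) and Haao (-0.47, 0.440) did not pass either. By library 7 members were lower without overlap, where 21.7% of tested genes were lower and 16.4% higher in that way. The call of Kmo was lost on leaving out any single liver given saline or 200 mg/kg except the 3 Het APAP livers, WT APAP 1 and the liver given saline IG, and 4 members, all lower, were called without WT APAP 1. Haao (0.20) and Qprt (0.02) changed sign without WT saline 3, the only WT saline liver that was not perfused.

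No difference between the labels' responses reached the threshold for any member, which does not show that they responded alike. The OE minus Het difference of responses, where 2 genes (0.018%) were called, was 1.32 ± 0.32 for Kynu (limma adjusted p = 0.1003), 2.44 ± 0.69 for Afmid (0.124), 1.15 ± 0.35 for Tdo2 (0.128), 0.999 ± 0.33 for Kmo (0.147) and 1.01 ± 0.38 for Ido2 (0.188). Without Het APAP 1, Afmid (3.19, limma adjusted p = 0.028) and Kynu (1.46, 0.0469) passed, where 473 genes were called over the table. With 1 OE APAP liver left, Afmid was 2.92 without OE APAP 2 and 1.58 without OE APAP 1. In perfused livers alone, with 1 Het APAP liver and 1 OE liver per treatment, Afmid was 1.28. At an unadjusted p under 0.05 stood 2035 genes (18.4%), 5 of them members. In the Het minus WT and OE minus WT differences of responses 0% of genes were called, and the members with the smallest p were Kynu (-0.76 ± 0.28, adjusted p = 0.601) and Kmo (0.85 ± 0.32, adjusted p = 0.801). At an unadjusted p under 0.05 stood 917 genes (8.27%), 3 of them members, in the first and 665 genes (6%), 2 of them members, in the second.

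After APAP the livers labelled OE had more mRNA of 5 members than those labelled Het. Higher were Kynu by 1.60 ± 0.21 (limma adjusted p = 0.00354), Afmid by 2.62 ± 0.44 (0.00703), Tdo2 by 1.09 ± 0.23 (0.0122), Kmo by 0.92 ± 0.21 (0.0176) and Haao by 1.32 ± 0.33 (0.0236), 5 of 8 members where 13.7% of tested genes were called and 8.74% were higher. Qprt (0.66, adjusted p = 0.0824), Acmsd (0.67, 0.322) and Ido2 (0.41, 0.294) did not pass. With lane in place of perfusion 0 members passed. Without OE APAP 1, which left 1 OE APAP liver, Kynu was higher by 1.64 and Afmid by 1.90. With 1 liver left in that group, how far the calls rest on OE APAP 1 or on OE APAP 2 could not be judged. Without Het APAP 3 the count was 3 (Kmo and Haao lost), and it was 4 without Het APAP 2 (Haao lost). In the single lane shared by 1 OE APAP and 1 Het APAP liver the differences were 1.496 for Kynu, 1.41 for Afmid, 1.03 for Haao, 0.73 for Tdo2 and 0.70 for Kmo. The fit to perfused livers alone, which compares the same livers, gave the same values.

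Between Het and WT livers after APAP 0 members passed, and 6 genes (0.0541%) of all tested did. The members nearest to the threshold were Kynu (-1.17 ± 0.19, limma adjusted p = 0.0542), Haao (-1.38 ± 0.30, 0.0645), Ido2 (-0.87 ± 0.23, 0.0806), Qprt (-0.70 ± 0.22, 0.108) and Afmid (-1.17 ± 0.41, 0.159). All 3 WT APAP livers and 2 of the 3 Het APAP livers shared a lane, where the differences were -1.23 for Kynu, -1.55 for Haao, -0.996 for Ido2, -0.80 for Qprt and -1.51 for Afmid. These 5 members passed with lane in place of perfusion, all of them but Qprt passed without Het APAP 1, and Kynu, Haao and Ido2 passed without WT APAP 3 or WT saline 3. Over all genes 755 were called with lane, 561 without Het APAP 1, 852 without WT APAP 3 and 258 without WT saline 3. In the other direction, without Het APAP 2 the difference of Afmid was -0.62 (limma adjusted p = 0.510) and the adjusted p of the other 4 lay between 0.264 and 0.411. Without WT APAP 1 the adjusted p of the 5 lay between 0.144 and 0.431, and 1 gene was called over the table in each of these cases. At an unadjusted p under 0.05 stood 2118 genes (19.1%) and 5 members. Between OE and WT livers after APAP 0 members and 1 gene (0.00902%) passed, and Tdo2 (1.004 ± 0.24, adjusted p = 0.118), Afmid (1.45 ± 0.47, 0.178) and Kmo (0.61 ± 0.23, 0.212) had the smallest p. At an unadjusted p under 0.05 stood 1910 genes (17.2%) and 3 members in that comparison. These differences depended on OE APAP 1 and on lane: without that liver Afmid was 0.63, and with lane in place of perfusion Afmid was 0.14, Tdo2 0.58 and Kmo 0.32.

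**Figure D4:**
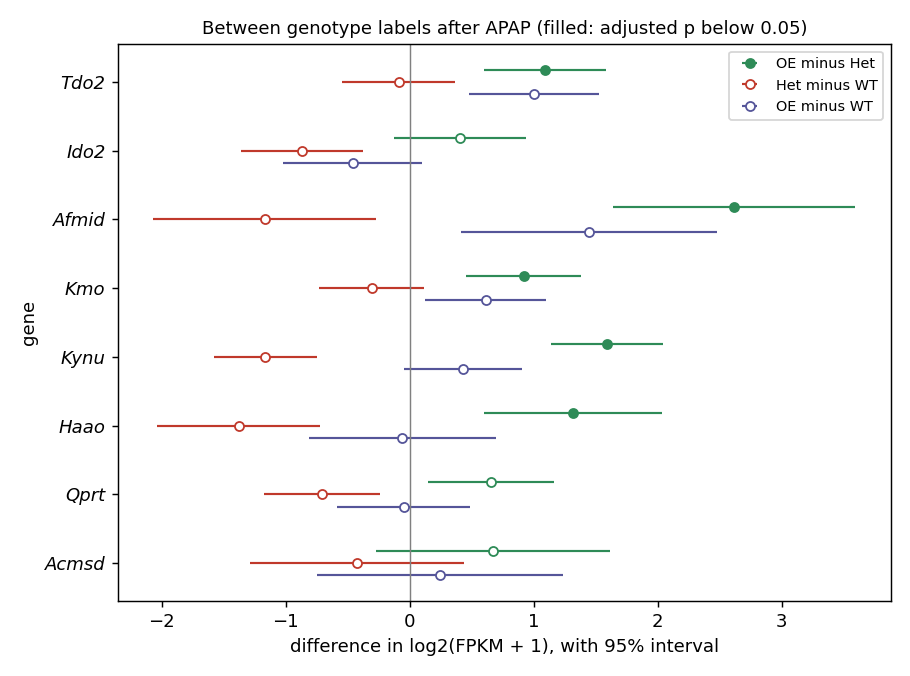
Differences between labels among livers given 200 mg/kg APAP, in log2(FPKM + 1) with 95% intervals (horizontal axis), for the 8 members; filled points passed an adjusted p of 0.05. Points for OE minus Het lie to the right of 0 and those for Het minus WT to the left, and only OE minus Het points are filled, for Tdo2, Afmid, Kmo, Kynu and Haao.

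Under saline 0 members differed between labels. In the Het minus WT comparison, with 4 genes (0.0361%) called, Haao differed by -1.04 ± 0.34 (limma adjusted p = 0.287) and Qprt by -0.73 ± 0.24 (0.293); their Het saline values of 178 and 167 FPKM and of 43.6 and 39.5 FPKM lay below all 3 WT saline values. In the OE minus WT comparison, again with 4 genes (0.0361%) called, Ido2 differed by -0.75 ± 0.25 (adjusted p = 0.604) and by -0.47 without WT saline 3, and its OE values of 11.3 and 7.61 FPKM lay below all 3 WT values. In the OE minus Het comparison, with 1 gene (0.00902%) called, Acmsd differed by 1.27 ± 0.49 (adjusted p = 0.889), and by 0.64 without OE saline 1. At an unadjusted p under 0.05 stood 1317 genes (11.9%) with 2 members in the Het minus WT comparison. There were 662 genes (5.97%) with 1 member in the OE minus WT and 593 genes (5.35%) with 1 member in the OE minus Het comparison.

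The neighbouring enzymes of kynurenine metabolism were lower as well. In the list of side branches and onward oxidation, 7 of the 9 tested genes fell in the averaged response and 0 rose, with a list median of -0.65 against -0.02 for all tested genes. Aadat, a kynurenine aminotransferase that makes kynurenic acid, fell by 1.40 ± 0.21 (limma adjusted p = 0.00106). Its level was 12.7 ± 3.47 FPKM in Het APAP livers (n = 3), against 57.8 ± 1.41 in Het saline livers (n = 2), 49.3 ± 23.5 FPKM in OE APAP livers, against 58.2 ± 18.2 in OE saline livers (n = 2 each), and 21.8 ± 5.53 FPKM in WT APAP livers, against 65.4 ± 8.13 in WT saline livers (SD, n = 3 each). Gcdh, which oxidises glutaryl-CoA further along the arm opened by Acmsd, fell by 1.03 ± 0.18 (adjusted p = 0.00217), Aldh8a1, the dehydrogenase next to Acmsd on that arm, by 0.65 ± 0.14 (0.00638) and Dlst by 0.58 ± 0.13 (0.00752). Kyat1 (-0.38, adjusted p = 0.214) and Kyat3 (-0.10, adjusted p = 0.712), further aminotransferases, did not pass. Acmsd was higher while the enzymes listed after it on the oxidative arm, Aldh8a1, Gcdh, Dhtkd1, Dlst and Acat1, were all called lower.

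Carriers of tryptophan and kynurenine were mixed, with 3 higher, 1 lower and 2 not called of 6 tested. Slc3a2, the heavy chain shared by amino acid exchangers, rose by 0.54 ± 0.11 (limma adjusted p = 0.00484), Slc7a8, one of its light chains, by 0.64 ± 0.14 (0.00807) and Slc36a4 by 0.34 ± 0.11 (0.0459), the last pair at mean levels of 1.05 and 2.30 FPKM. Slc16a10, which carries aromatic amino acids out of the cell, fell by 1.03 ± 0.22 (0.00648). Of the other fates of tryptophan, 3 of 5 tested genes fell and 1 rose. Inmt, a methyltransferase of indole amines, fell by 2.61 ± 0.46 (0.00312), Maob by 1.12 ± 0.27 (0.0118) and Ddc, the aromatic amino acid decarboxylase, by 0.36 ± 0.12 (0.0408), and Wars, which charges tRNA with tryptophan, rose by 0.47 ± 0.14 (0.0315).

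In the list for other NAD supply, 8 of 12 tested genes were called lower and 1 higher. Of all tested genes 13.3% were called lower and 9.81% higher. The list also takes in enzymes that clear methylated nicotinamide and a mitochondrial NAD carrier. Nmrk1, the nicotinamide riboside kinase, fell by 1.15 ± 0.15 (limma adjusted p = 0.000635) and Naprt, the entry enzyme for nicotinic acid, by 0.68 ± 0.12 (0.00221). The aldehyde oxidases Aox3 and Aox1, which can oxidise methylated nicotinamide, fell by 1.51 ± 0.29 (0.00388) and 1.06 ± 0.21 (0.0048). Slc25a51, the mitochondrial NAD carrier, rose by 0.59 ± 0.20 (0.0489), and Nampt itself (-0.46 ± 0.16, adjusted p = 0.054) did not pass. Amino acid breakdown enzymes of hepatocytes, as a whole, fell in 10 of 15 cases and rose in 0, with Prodh at -1.93 ± 0.19 (0.000134), Bhmt at -1.70 ± 0.22 (0.000537) and Oat at -2.19 ± 0.32 (0.00105). The list median was -0.79, so the members' median of -0.61 lay no lower than that of amino acid breakdown in general.

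**Figure D5:**
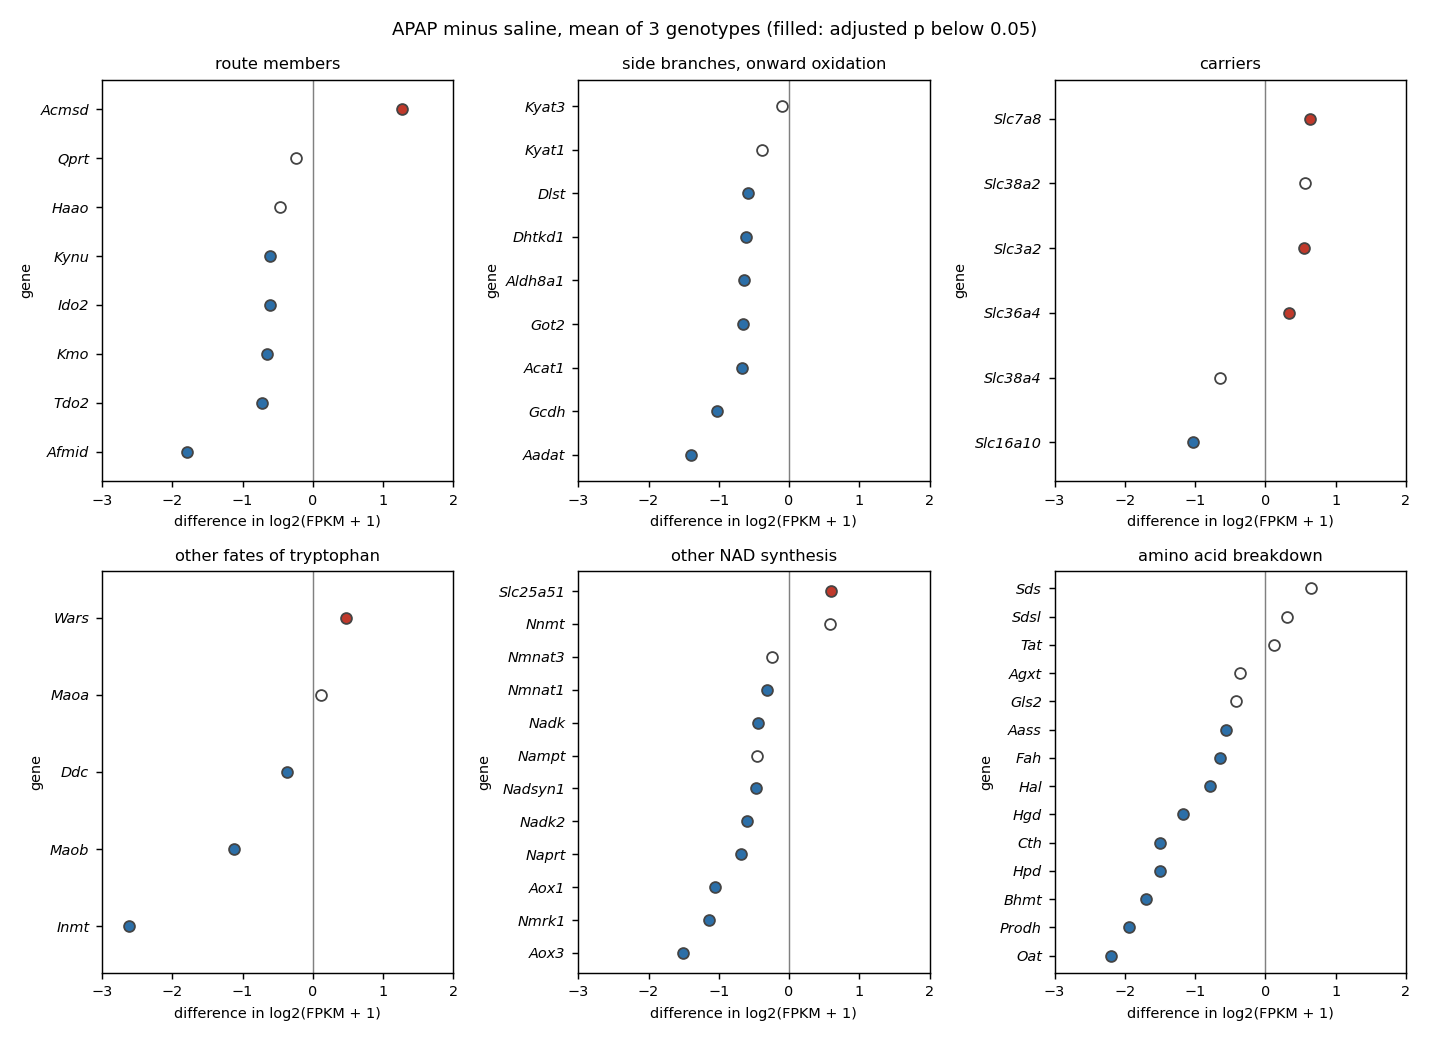
APAP minus saline differences in log2(FPKM + 1), as the mean of 3 labels, for tested genes of the route and of 5 neighbouring lists (1 panel per list, genes ordered by difference, 1 gene of the amino acid breakdown list not drawn); filled points passed an adjusted p of 0.05, red higher and blue lower. Falls prevail in every panel but that of the carriers, and Acmsd is the member that rose.

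Tdo2 is a known glucocorticoid target. Among regulators known for Tdo2 and Acmsd and targets of the glucocorticoid receptor, 1 of 11 tested genes rose and 1 fell. Fkbp5, a glucocorticoid target, rose by 0.66 ± 0.15 (limma adjusted p = 0.00884) and Ppara, a nuclear receptor of fatty acid oxidation whose activators are known in rats to lower Acmsd, fell by 0.74 ± 0.13 (0.00254). Zbtb16 (1.03 ± 0.41, limma adjusted p = 0.0964) and Pck1 (0.88 ± 0.37, 0.108), further genes of the list, did not pass. For the aryl hydrocarbon receptor, which kynurenine can activate, 1 of 5 tested genes was lower, Cyp1a2 (-1.16 ± 0.37, adjusted p = 0.043), and 0 were higher. Cyp1a2 also stands in the list of pericentral hepatocyte markers, of which 8 of 9 tested genes were lower. Among genes for the pyridoxal phosphate and flavin cofactors used by Kynu and Kmo, Pdxk fell by 0.51 ± 0.13 (0.0169) and the other 3 did not pass.

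Markers of liver cell types differed in direction. Of 10 hepatocyte markers 6 fell and 0 rose in the averaged response, of 9 pericentral markers 8 fell, of 10 periportal markers 4 fell, and of 10 monocyte and macrophage markers 7 rose. The summed FPKM of the hepatocyte list was 10270 to 14690 in Het APAP livers, against 26460 to 26730 in Het saline livers. It was 23510 to 23640 in OE APAP livers, against 24600 to 29740 in OE saline livers, and 12840 to 19290 in WT APAP livers, against 25460 to 27720 in WT saline livers. The hepatocyte sums did not overlap in any label, and their gap was widest in Het livers and narrowest in OE livers. The pericentral sum was 215 to 758 in Het APAP livers, against 4413 to 4549 in Het saline livers, and 910 to 1579 in OE APAP livers, against 1450 to 5425 in OE saline livers. It was 494 to 1263 in WT APAP livers, against 3444 to 3515 in WT saline livers, and the low OE saline value belonged to 1 liver of the pair. Monocyte and macrophage sums were 293 to 479 in Het APAP livers, against 77.4 to 133 in Het saline livers, 67.0 to 171 in OE APAP livers, against 52.5 to 132 in OE saline livers, and 95.3 to 417 in WT APAP livers, against 72.6 to 103 in WT saline livers. Of 4 tested neutrophil markers 3 rose, of 8 stellate cell markers 4 rose and 2 fell, of 2 cholangiocyte markers 1 rose, of 8 endothelial markers 2 fell, of 4 erythroid markers 1 fell, and of 10 Kupffer cell and 2 dendritic and lymphoid markers 0 passed in either direction with limma, although 2 Kupffer cell markers had an unadjusted p under 0.05. Of the neutrophil, dendritic and lymphoid, cholangiocyte and erythroid lists 2, 5, 3 and 1 markers stayed under 1 FPKM in every library. The part of these shifts in the members' differences was not tested.

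The genes whose profile over the 17 libraries was most like a member's were found by the root mean square difference of log2(FPKM + 1) after centring each gene on its own mean. Kmo had the closest matches, Pgrmc1 (0.10), Asgr1 (0.13), the hepatocyte receptor for desialylated glycoproteins, and Hibch (0.13), an enzyme of valine breakdown. Kynu lay near Adhfe1 (0.18), Mettl7b (0.18) and Marc1 (0.18), Qprt near Cryzl2 (0.15) and Sil1 (0.16), and Tdo2 near Mlycd (0.18), Sfxn2 (0.21) and Azgp1 (0.22). Ido2 lay near Abcb10 (0.20), Cyb5b (0.21) and Ulk2 (0.22), and Haao near Acsm1 (0.21), Tlcd1 (0.21) and Psen2 (0.23). Afmid, the most variable member, lay near Akr1d1 (0.31), a reductase of bile acid synthesis, Hpd (0.32), of tyrosine breakdown, and Bhmt (0.32), of methionine metabolism. Acmsd had no near match, and Cdc42ep5 (0.43) and Ccl9 (0.44), a chemokine, were among its nearest. Between members the closest pair was Tdo2 and Kmo (0.29), followed by Qprt and Ido2 (0.31), and Acmsd lay 0.88 to 1.60 from every other member. These distances describe shared libraries and carry no test.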

How the data were processed

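Total RNA of 17 mouse livers was sequenced as stranded paired-end libraries, per the labels' protocols. The submitters' processing notes name Cufflinks 2.2.1, Cuffdiff, TopHat2 2.0.9 and bcl2fastq 2.17.1.14, with build GRCm38 p5, whereas settings, annotation and use of strand are not given in the sources used here. For each gene the authors deposited 1 number per liver, taken to be FPKM made with those tools, since the values are not whole, are never negative and have unequal sums; so the depth behind a value is unknown and counting error cannot be stated. All its sample columns were used.

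Values were tested as log2(FPKM + 1) with limma 3.58.1 (R 4.3.3, statmod 1.5.0; trend and robust prior) for genes averaging 1 FPKM or more, with 8 groups and a perfusion term in 1 fit (8 residual degrees of freedom) and Benjamini-Hochberg adjustment over 11083 genes at 0.05. Because the pseudocount compresses low genes, log2 differences understate their change. Left out were 114 genes as failed estimates: 108 listed at 0 throughout a label and treatment while another averaged at least 10 FPKM, and 6 neighbours within 100 kb with the same zeros, a rule set after seeing the data. The averaged response weights the 3 labels equally. The scripts were tested on simulated data. Tables were handled with Python 3.11.15, numpy 2.4.6 and pandas 2.3.3, positions come from GENCODE vM21 (GRCm38), and promoters from RefSeq.

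The members and lists were chosen with earlier results of these data known. Named are all 8 members, up to 4 genes per neighbouring list with the smallest p in the averaged response, and the 3 nearest profiles per member (of tested genes, leaving out members, predicted genes, Riken clones and pseudogenes). Ido1, Kyat1, Kyat3, Dhtkd1, Acat1, Slc25a51, Nampt and the overlapping genes were named beside that rule, after their values were seen. A few items that these rules name are not reported here. Replicate numbers are names in accession order. No 2 libraries were duplicates: the smallest median difference of a pair was 0.135 on the log2 scale. Alternatives covered the pseudocount, filters, perfusion, lane, normalization, weights, groups in the fit and each library left out.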

Additional observations from a re-analysis of the deposited data

Results flagged for a closer look

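The single OE liver given 300 mg/kg APAP enters no comparison, and 3 members stood there above both OE saline livers. Kynu was 71.4 FPKM in it, against 62.0 and 57.2 FPKM in OE saline livers. Acmsd was 23.3 FPKM in it, against 22.1 and 9.03 FPKM in OE saline livers, and Ido2 was 12.3 FPKM in it, against 11.3 and 7.61 FPKM in OE saline livers. In the lane it shared with OE saline 2 the differences from that liver were 0.32 for Kynu, 1.27 for Acmsd and 0.63 for Ido2. With 1 library these differences were not tested.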

How the results depend on the processing

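No paired analysis was possible because replicate numbers were given in accession order and pair no samples. For the averaged response, 6 members were called, 2 to 6 with 1 library left out, and 3 with libraries scaled to one summed FPKM. For Het livers it was 6, 3 to 6 with 1 left out, and 2 with lane in place of perfusion or with only the groups compared; it was 4 with one summed FPKM, where Kmo (-0.69) and Ido2 (-0.87) were lost, and 5 with no filter, where Acmsd was lost. For OE livers it was 0 (0 with 1 left out), whereas in perfused livers alone, with 1 liver per treatment, Afmid differed by -1.10. For WT livers it was 1, 0 to 4 with 1 left out, 0 with no filter, in non-perfused livers alone, with quantile normalization, with only the groups compared or without OE saline 2 and OE APAP 1, 2 with one median, 3 with array weights, with the single IG and 300 mg/kg livers pooled into their groups or without trend and robust prior, and 4 without the perfusion term; with one summed FPKM it stayed 1 but Kmo was lost and Acmsd (1.38) was called instead. For the OE minus Het difference of responses it was 0, 0 to 2 with 1 left out, and 1 with those livers pooled. In perfused livers alone, with 1 Het APAP liver and 1 OE liver per treatment, Kynu differed by 1.30 and Afmid by 1.28. For the Het minus WT difference of responses the count was 0, and 1 with array weights. After APAP, OE minus Het gave 5, 0 to 5 with 1 left out, 0 with lane or without OE saline 2 and OE APAP 1, 1 with only the groups compared, 2 in non-perfused livers alone or with one summed FPKM, and 3 with quantile normalization. After APAP, Het minus WT gave 0, 0 to 4 with 1 left out, 1 with a pseudocount of 0.1, quantile normalization, pooled livers or failed estimates kept, 5 with lane and 6 with array weights. Without OE saline 2 and OE APAP 1 the count was 5 in Het livers and stayed 0 in OE livers, in the 3 differences of responses, under saline and for Het minus WT and OE minus WT after APAP. Under saline, Het minus WT gave 0, 1 in perfused livers alone or with only the groups compared and 2 with array weights. The OE minus Het comparison under saline gave 0, and in perfused livers alone, with 1 OE liver, Haao differed by 0.82. The number of all genes called changed between alternatives too, as given below for the averaged and Het responses. These counts therefore show nothing particular to the members. A fit that leaves 1 liver in a group takes its spread from the other groups. Apart from the scaling shifts described next, the cause was not tested.

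Scaling to one summed FPKM moved the median of all genes by 0.126 in the averaged response, 0.292 in Het livers, 0.241 in the Het minus WT and -0.264 in the OE minus Het difference of responses, and -0.286 (OE minus Het), 0.138 (Het minus WT) and -0.151 (OE minus WT) after APAP. With 1 library left out, the WT difference ran from -0.656 to 0.202 for Haao and from -0.456 to 0.016 for Qprt, both changing sign without WT saline 3, and the OE difference of Afmid from -1.296 to 0.046, changing sign without OE APAP 2; in OE livers 7 of 8 members changed sign under some alternative, all but Acmsd. Qprt in Het livers changed sign with one summed FPKM (0.036). Over all genes, 2561 were called in the averaged response, but 878 on leaving out OE APAP 2, 1295 on leaving out OE saline 2, and 1641 on leaving out OE APAP 1 as well as OE saline 2. In Het livers 2459 were called, but 842 with lane, 837 with only the groups compared, and 888 and 905 without Het saline 1 and Het saline 2. Lane could not be fitted for the averaged and WT responses, the WT response could not be fitted in perfused livers alone, nor the Het response in non-perfused livers alone.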
